A study of Mus musculus with 10 samples.

Results

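The 44 genes described here are 21 genes of DNA replication, whose transcripts peak around S phase, and 23 genes of mitosis, whose transcripts peak in G2 and M. They were taken by symbol from a list of replication and mitosis genes, by a rule that used no level or test but was set with earlier results of these data known, and all 44 were found among the 27716 genes that every count matrix of the series lists. The S genes were *Mcm2*, *Mcm3*, *Mcm4*, *Mcm5*, *Mcm6*, *Mcm7*, *Pcna*, *Tyms*, *Rrm1*, *Rrm2*, *Gins2*, *Uhrf1*, *Cdc6*, *Cdc45*, *Slbp*, *Tipin*, *Ccne1*, *Ccne2*, *E2f8*, *Clspn* and *Dscc1*. The G2/M genes were *Mki67*, *Top2a*, *Birc5*, *Ube2c*, *Ccnb1*, *Ccnb2*, *Ccna2*, *Cenpf*, *Cenpe*, *Cenpa*, *Cdk1*, *Nusap1*, *Tpx2*, *Aurka*, *Aurkb*, *Bub1*, *Plk1*, *Cdc20*, *Hmmr*, *Kif11*, *Kif23*, *Anln* and *Cks2*.

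A dividing cell copies its DNA in S phase and parts the copies in mitosis, and each phase draws on its own set of transcripts. E2F factors switch on the replication genes late in G1, and the complexes of B-Myb and FoxM1 switch on the mitotic genes once replication is under way. In the embryonic pancreas the acinar and ductal epithelium and the mesenchyme divide while the organ grows, and endocrine progenitors leave the cycle as they pass through the *Neurog3* state toward hormone-producing cells.

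Whole mouse pancreata were dissociated, live cells were sorted, and single cells were captured in droplets with 10x Genomics kits, in which each captured transcript is counted once by a unique molecular identifier (UMI). Version 1 kits were loaded with all live cells of Swiss Webster embryos. There were 2 such pools at E14.5, labelled batch 1 and batch 2, and the pools of the earlier stage (E12.5) and of the later one (E17.5) are labelled batch 2 as well. Version 2 kits were loaded with Swiss Webster cells of the same stages, 1 pool each, after depletion of CD140a+ mesenchyme, and the E17.5 suspension was split over 2 wells, which were summed. One further version 2 pool at E14.5 came from Fev-Cre; ROSA26mTmG embryos on a C57BL/6J background, in which Cre driven by *Fev* turns membrane TdTomato into membrane GFP, and sorted GFP+ cells were loaded together with a larger number of TdTomato+/GFP- cells. No animal received a drug, and apart from this reporter no allele was altered. Pancreata were pooled before capture, so the 8 pools were the independent samples, and dissociation lasted longer at later stages, so stage and time in enzyme cannot be told apart.

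After barcodes with fewer than 200 genes were left out, 57982 cells were kept, of which 2013 were set aside as doublets. Median UMIs per cell ran from 2952 to 4332 in version 1 pools and from 7504 to 11260 in version 2 pools. Haemoglobin took 0.0128% to 16.7% of the UMIs of kept cells, and no 2 pools shared more than 277 barcodes. Cells were grouped with the 44 members and the genes that varied with them held out, to lessen the effect of phase on the groups, and groups were named from marker genes. Phase still marked some groups, since 1 version 1 mesenchymal cluster of 483 cells was led by *Depdc1b* and held *Foxm1* among its leading genes. Acinar-like cells carried the digestive enzyme *Cpa1* (median over pools 6906 CPM, that is, UMI sums of a class and pool brought to a common total), ductal-like cells *Spp1* (7421), Ngn3+-like cells *Neurog3* (4530) and Fev+-like cells *Fev* (901). Cells left without a name made up 18.7% of the version 2 E12.5 pool, 3.71% to 8.10% of the other version 2 pools and none in version 1. Some unnamed version 2 clusters carried endocrine genes, 1 of 454 cells with *Chgb* and *Fev*, 1 of 375 cells with *Neurog3* and 1 of 285 cells with *Cartpt* and *Gcg*, and their cells held, at the median, 1.93, 1.91 and 1.53 times the median UMIs of their own pools. The values of Ngn3+-like, Fev+-like and hormone+ cells in version 2 leave these cells out.

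The promoters of the members were searched for letters that E2F, NF-Y and the regulators of mitotic genes are known to read. The letters searched for E2F were TTCCCGC, or alternatively TTGGCGC, or with another middle TTCGCGC, or finally TTGCCGC. The cell cycle homology region (CHR) of mitotic genes was searched as TTTGAA and the NF-Y box as CCAAT. Both strands were searched in windows from 250 bases before to 50 bases after the RefSeq start. TTGGCGC and TTCGCGC can overlap when they lie on opposite strands. A window was at hand for 36 members, 16 S genes and 20 G2/M genes. An E2F site was in 10 of 16 S genes (62.5%) and 4 of 20 G2/M genes (20%), against 10.9% of all 27025 genes. TTTGAA was in 3 of 16 S genes and 14 of 20 G2/M genes (70%), against 20.2% of all genes. CCAAT was in 13 of 16 and 17 of 20, against 41.1%. The longer CDE and CHR pair was in 2 G2/M genes, *Cdk1* and *Cenpf*, and in 0.0851% of all genes. These are matches of letters in a window, and binding was not measured.

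Stretches just before the start of 5 members are shown because their S genes hold E2F letters and no TTTGAA in the stretch while their mitotic genes hold TTTGAA, from the GRCm38.p6 build (mm10), written 5′ to 3′ on the strand of the gene, with matches to any searched motif in capitals. The helicase subunit genes *Mcm5* (chr8:75109339-75109508, plus strand) and *Mcm6* (chr1:128359706-128359825, minus strand) hold E2F and CCAAT letters. The kinase gene *Cdk1* (chr10:69352913-69353052, minus strand), the proliferation antigen gene *Mki67* (chr7:135716380-135716509, minus strand) and the ubiquitin ligase partner gene *Ube2c* (chr2:164769829-164769928, plus strand) hold TTTGAA on one strand or the other. *Cdk1* and *Mki67* hold E2F letters as well, and *Cdk1* and *Ube2c* hold CCAAT letters in the stretches shown.
Mcm5: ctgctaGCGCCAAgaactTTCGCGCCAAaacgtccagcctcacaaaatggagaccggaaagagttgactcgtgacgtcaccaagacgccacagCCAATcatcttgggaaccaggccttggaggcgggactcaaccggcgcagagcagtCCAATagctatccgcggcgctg
Mcm6: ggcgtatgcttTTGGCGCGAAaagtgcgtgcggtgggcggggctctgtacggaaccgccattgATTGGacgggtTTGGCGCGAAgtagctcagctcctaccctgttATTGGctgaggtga
Cdk1: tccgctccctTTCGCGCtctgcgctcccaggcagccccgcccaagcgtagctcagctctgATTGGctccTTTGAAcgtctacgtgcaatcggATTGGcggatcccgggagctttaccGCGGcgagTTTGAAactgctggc
Mki67: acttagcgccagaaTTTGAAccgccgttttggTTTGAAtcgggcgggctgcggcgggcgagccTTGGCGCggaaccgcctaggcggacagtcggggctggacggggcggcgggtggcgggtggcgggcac
Ube2c: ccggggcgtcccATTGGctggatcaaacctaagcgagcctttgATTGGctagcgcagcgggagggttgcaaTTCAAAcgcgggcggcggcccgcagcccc

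To call phase at equal depth, every cell was thinned at random to 2000 UMIs and shallower cells were left out, which removed 4.94% to 19.8% of cells in version 1 pools and none in version 2. A cell was called cycling with UMIs of at least 3 of the 21 S genes or at least 3 of the 23 G2/M genes. It was called G2/M where the G2/M cut was met, and S where the S cut alone was met. These calls are ranges of a score rather than cell types, since cells within 1 gene of the cut made up 14.8% to 28.0% of a pool. Of 54533 cells deep enough, 24621 were called cycling.

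The detection of each member by phase is given as a description, from calls made without that gene. The rule fixes much of the pattern, since S cells are those that miss the G2/M cut and cells that meet both cuts count as G2/M, so the rule favours G2/M genes being rarer in S cells and lets S genes be frequent in G2/M cells. All 23 G2/M genes were more frequent in G2/M cells than in S cells in 8 of 8 pools, and nothing is read from that order. *Plk1*, a kinase of mitotic entry, was found in 20.6% of G2/M cells, 1.24% of S cells and 0.358% of the remaining cells (medians of pools). *Hmmr*, a spindle protein, was found in 16.4%, 0.646% and 0.412%. *Top2a*, which untangles DNA, was found in 46.0%, 9.67% and 1.31%, and *Cdk1*, the mitotic kinase, in 48.0%, 15.9% and 4.79%. Among the mitotic genes *Cdk1* and *Cks2*, its binding partner, were the most frequent in S cells (12.9% for *Cks2*).

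The helicase genes *Mcm2*, *Mcm3*, *Mcm4*, *Mcm5* and *Mcm6* were found more often in S cells than in G2/M cells in 8 of 8 pools. An S cell must hold at least 3 other S genes, which a G2/M cell need not. The rule thus also favours this order for genes found together with other S genes, and nothing is read from it. For *Mcm6* the medians were 35.6% of S cells, 22.1% of G2/M cells and 13.7% of cells not cycling, and for *Mcm3* 24.8%, 14.3% and 7.18%. *Cdc6*, which loads the helicase, was rare and seldom found outside cycling cells, at 7.37%, 4.73% and 0.464%. *Pcna*, the sliding clamp, was almost as frequent in G2/M cells (25.5%) as in S cells (29.8%).

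Some S genes had the opposite order, which the rule favours for genes present in cells that meet both cuts. *Tyms*, which makes thymidylate, was found in 25.2% of S cells and 40.5% of G2/M cells, *Rrm2*, a subunit of ribonucleotide reductase, in 19.7% and 38.4%, and *Rrm1*, its partner, in 14.7% and 25.6%. These 3 genes, *Cdc45* and the repressor gene *E2f8* were more frequent in G2/M cells in 8 of 8 pools. *Slbp*, which binds histone mRNA, had the smallest ratio of detection between cycling and other cells among the members. It was found in 34.4% of S cells, 30.2% of G2/M cells and 15.2% of cells not cycling, and in 16.2% of non-cycling hormone+ cells, where *Mcm6* was found in 2.47% and *Top2a* in 0.252%. *Slbp* was singled out after its values had been seen.

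**Figure D1:**
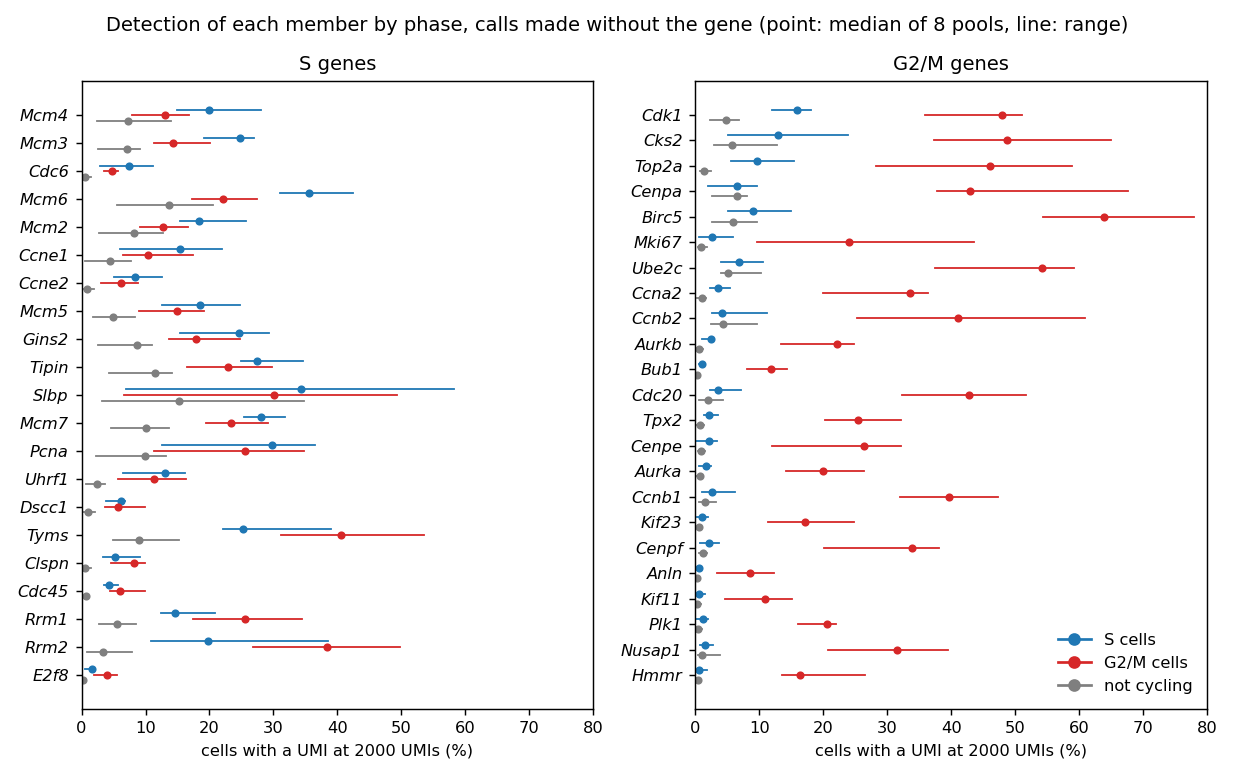
Percent of cells with a UMI of each S gene (left) and G2/M gene (right) at 2000 UMIs per cell, in cells called S, G2/M or not cycling without that gene; points are medians and lines ranges over the 8 pools. The 23 G2/M genes are more frequent in G2/M cells, an order the rule for calling phases favours, while *Tyms*, *Rrm1*, *Rrm2*, *Cdc45* and *E2f8* on the left are more frequent in G2/M cells than in S cells.

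The share of cycling cells differed strongly between classes, and among the 6 classes listed next its median was lowest in hormone+ cells. Erythroid cells were also low at this setting, with a median of 9.59%. Their 20 most abundant genes, led by haemoglobin, took 69.5% to 93.2% of their UMIs, which leaves fewer UMIs for the members. With those genes removed before thinning, the erythroid median was 73.8% (52.4% to 100%) among cells still deep enough. The low value is thus not read as little cycling. Over the pools with at least 20 cells, the median share of cycling cells was 70.8% in acinar-like, 52.0% in ductal-like and 50.8% in mesenchymal cells. It was 28.8% in Ngn3+-like cells, 7.03% in Fev+-like cells and 3.70% in hormone+ cells. The spread over pools was 32.4 (SD, n = 8) for acinar-like cells, 17.6 (n = 8) for ductal-like, 14.8 (n = 8) for mesenchymal, 10.7 (n = 6) for Ngn3+-like, 6.205 (n = 8) for Fev+-like and 1.99 (n = 8) for hormone+ cells. The Fev+-like median was 3.72% or 10.3% when 1 pool was left out, 3.72% without either E12.5 pool, E14.5 batch 1 or the version 2 E14.5 pool, and 10.3% without any of the other 4. Removing the 20 most abundant genes before thinning gave medians of 4.58% in Fev+-like and 6.05% in hormone+ cells. The order of these 2 classes thus depended on the setting. No test was run on these shares, and the intervals given below (exact binomial, 95%) cover counting error only.

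Acinar-like cells had the largest median share of the 6 classes above, though not at E17.5. The share was 69.1% in the version 1 and 68.95% in the version 2 pool at E12.5. At E14.5 it was 92.4% in version 1 batch 1, 72.4% in batch 2, 82.9% in version 2 and 88.5% in the Fev-Cre pool. At E17.5 it was 20.6% in version 2 (interval 18.8% to 22.4%, 1965 cells) and 1 of 25 cells in version 1 (interval 0.101% to 20.4%). Both E17.5 pools therefore lay below all 6 earlier pools.

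Acinar-like cells at E17.5 also differed in what filled their UMIs. The 20 most abundant genes, led by the protease gene *Ctrb1* in both kits and with haemoglobin among them in version 1, took 31.3% (version 1) and 30.1% (version 2) of UMIs there, against 12.3% and 13.1% at E12.5. With those genes removed before thinning, the shares at E17.5 were 13.3% and 24.02%, below the 75.3% and 72.2% found the same way at E12.5. Different clusters held the class at the 2 stages, with *Vtn* and *Gc* among the leading genes at E12.5 and the protease genes *Cela3b* and *Cpb1* at E17.5, and the part of either in the share was not tested.

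Ductal-like cells cycled less than acinar-like cells in every pool before E17.5 and more at E17.5. The share was 51.0% and 48.5% at E12.5 (version 1, version 2). At E14.5 it was 73.6% in batch 1, 53.1% in batch 2, 58.65% in version 2 and 74.7% in Fev-Cre. At E17.5 it was 20.1% in version 1 (interval 13.9% to 27.6%) and 41.2% in version 2 (39.2% to 43.2%). Ductal-like cells thus came out above acinar-like cells in both E17.5 pools, with intervals that overlapped in version 1 and did not in version 2.

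Ngn3+-like cells held a middle place. The share was 29.8% at E12.5 in version 2, 35.4% in batch 1, 26.2% in batch 2, 31.6% in version 2 and 27.8% in Fev-Cre at E14.5, and 5.11% at E17.5 in version 2 (interval 2.82% to 8.42%). The 5 earlier pools overlapped in their intervals and the E17.5 pool lay below them all. In version 2 different clusters held the class at each stage, with *Gm8773* and *C2cd4b* leading at E12.5, *Gadd45a* and *Btbd17* in the largest at E14.5, and *Neurog3* and *Neurod2* in the largest at E17.5, and the part of this in the share was not tested. Version 1 pools at E12.5 and E17.5 held only 16 and 10 such cells and were not used.

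Fev+-like and hormone+ cells had the lowest median shares of the classes listed above at this setting. The Fev+-like share was 10.7% and 16.6% at E12.5 (version 1, version 2). At E14.5 it was 14.7% in batch 1, 1.98% in batch 2, 10.3% in version 2 and 3.72% in Fev-Cre, and the E17.5 pools gave 1.37% and 1.67%. In the same order the hormone+ share was 3.08% and 5.35%, then 5.10%, 0 of 174 cells, 2.51% and 4.32%, and last 0.699% and 4.38%. A limit of 3 cells among these 174 comes to 1.72% and is not the exact interval used elsewhere, which reaches higher. The Fev+-like shares were above 10% in 4 pools and below 4% in the other 4, while the hormone+ shares stayed at or under 5.35% at every stage. In the Fev-Cre pool the share in Fev+-like cells was 3.24% of 863 cells with an eGFP UMI and 6 of 50 cells without one (interval 4.53% to 24.3%). Since 287 of 867 acinar-like cells of that pool also held an eGFP UMI, an eGFP UMI alone does not mark the lineage.

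Mesenchymal cells had lower shares at E17.5 in both kits. Their share was 61.8% and 47.8% at E12.5 (version 1, version 2). At E14.5 it was 66.6% in batch 1, 46.3% in batch 2, 54.05% in version 2 and 53.9% in Fev-Cre, and the E17.5 pools gave 22.0% and 32.0%. The class differed in make-up between kits. In version 2 mesothelial-like cells outnumbered other mesenchymal cells, by 2389 to 1144 at E12.5 and 1486 to 434 at E17.5 (doublets included). In version 1 they were fewer, at 374 to 3250 and 49 to 1131. The part of this in the shares was not tested. Endothelial-like cells went from 54.2% and 51.2% at E12.5 to 32.7% and 33.9% at E17.5, and macrophage-like cells from 40.9% and 46.8% to 25% and 35.1%. Different clusters held the macrophage-like class of version 2 at these stages, 1 led by *Ccl24* with mostly E12.5 cells and others led by *Ccl6* or *Lyve1* with mostly E17.5 cells. The version 1 E12.5 pool held only 28 endothelial-like cells, 4 of them doublets, and 22 macrophage-like cells. Its values for these 2 classes thus carry a wide counting error. Batch 1 of E14.5 had the highest share of cycling cells over all classes (67.3%) and batch 2 of the same stage 41.2%, so pools of 1 stage and kit differed as widely as some stages did. The 2 wells of the version 2 E17.5 suspension gave 41.4% and 41.0% in ductal-like cells, 20.9% and 20.3% in acinar-like cells, and 30.1% and 40.3% in macrophage-like cells.

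**Figure D2:**
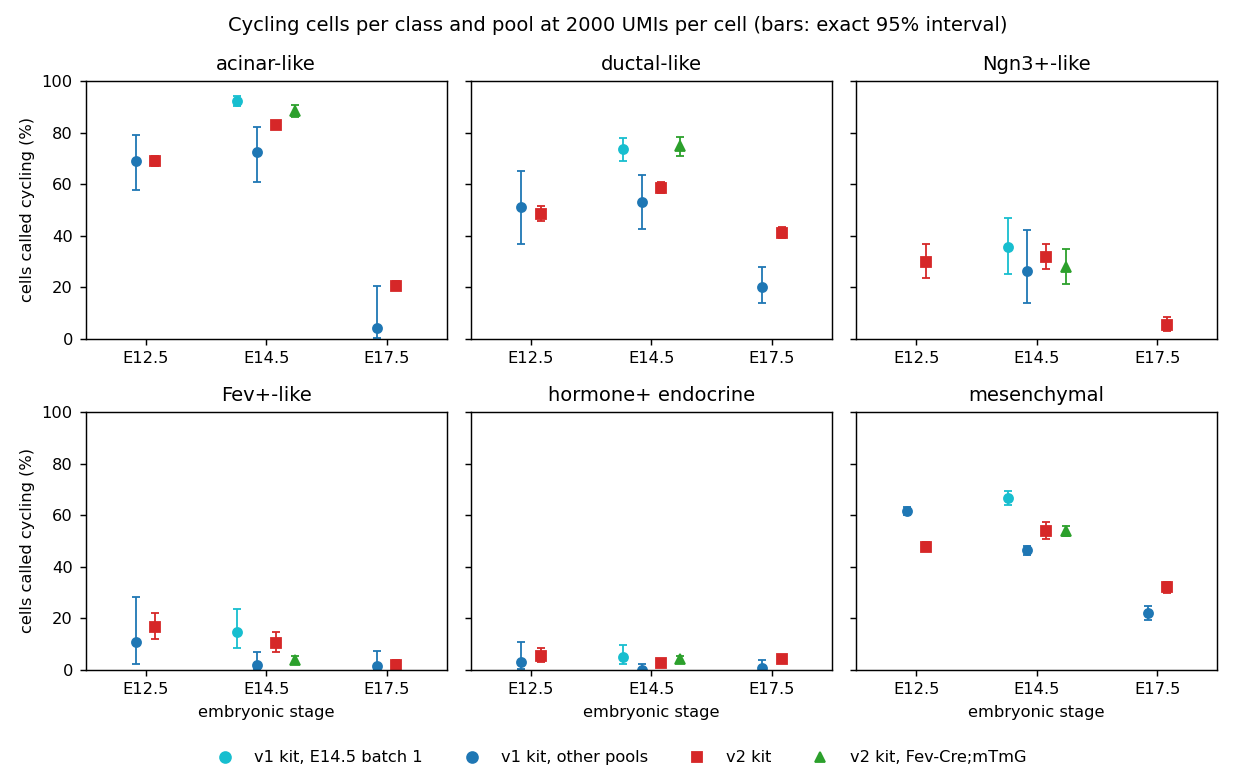
Percent of cells called cycling at 2000 UMIs per cell (vertical axis) by stage (horizontal axis) in 6 classes; each point is a pool and the bars are exact 95% binomial intervals. Acinar-like cells sit between 68.95% and 92.4% up to E14.5 and at 4% and 20.6% at E17.5, while hormone+ cells stay at or below 5.35%.

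The balance of S against G2/M differed between classes too, counting cells that meet both cuts as G2/M. Among cycling acinar-like cells, G2/M cells were the majority in all 8 pools (the version 1 E17.5 pool had 1 cycling cell), with a median of 60.6% over the 7 pools that held more than 1 cycling cell. Among cycling ductal-like cells their share ran from 19.2% (version 1 E12.5) to 69.1% (Fev-Cre), with a median of 45.1%. Cycling endothelial-like cells also lay on the G2/M side in 8 of 8 pools (52.4% to 76.2%). So did neural cells in 6 of 6 pools, other immune and erythroid cells in 7 of 7, and macrophage-like cells in 7 of 8.

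Cycling Ngn3+-like cells lay on the S side. At E12.5 in version 2 there were 31 S and 28 G2/M cells. At E14.5 there were 21 and 7 in batch 1, 11 and 0 in batch 2, 97 and 19 in version 2, and 36 and 14 in Fev-Cre. S cells outnumbered G2/M cells in all 6 pools, the E17.5 pool included with 8 and 6. Cycling hormone+ cells were on the G2/M side at both ends of the version 2 series and on the S side between them. There were 4 S and 12 G2/M cells at E12.5. The E14.5 pool had 11 and 4, the Fev-Cre pool 48 and 20, and the E17.5 pool 11 and 44.

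Summed levels gave a second view of the balance, as the log2 ratio of the 21 S genes over the 23 G2/M genes in CPM of a class. The 2 sets differ in number and level of genes, so a ratio of 0 does not mark equal numbers of S and G2/M cells. The 2 views also differed. In mesenchymal cells the ratio was below 0 in 7 of 8 pools, while G2/M cells outnumbered S cells in 1 of 8. In acinar-like cells these numbers were 5 of 8 and 8 of 8. Among acinar-like, ductal-like, endocrine and mesenchymal cells the ratio was lowest in acinar-like cells of version 2 at E17.5, at -1.41, where the S genes summed to 390 CPM and the G2/M genes to 1036. At E12.5 in the same kit they summed to 1659 and 2268, a ratio of -0.45. In ductal-like cells the ratio went from -0.14 to -0.84 over the same stages, and in mesenchymal cells from -0.48 to -0.99. In version 1 the ratio went the other way in acinar-like cells, from -0.19 to 0.49, where the E17.5 pool held 37 cells. It was 0.13 and 0.14 in ductal-like cells and -0.46 and -0.49 in mesenchymal cells of that kit. The lower ratio of version 2 at E17.5 was thus not found in version 1 acinar-like or ductal-like cells. In Ngn3+-like cells the ratio ran from -0.74 (version 2 E12.5) to 2.497 (batch 2).

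**Figure D3:**
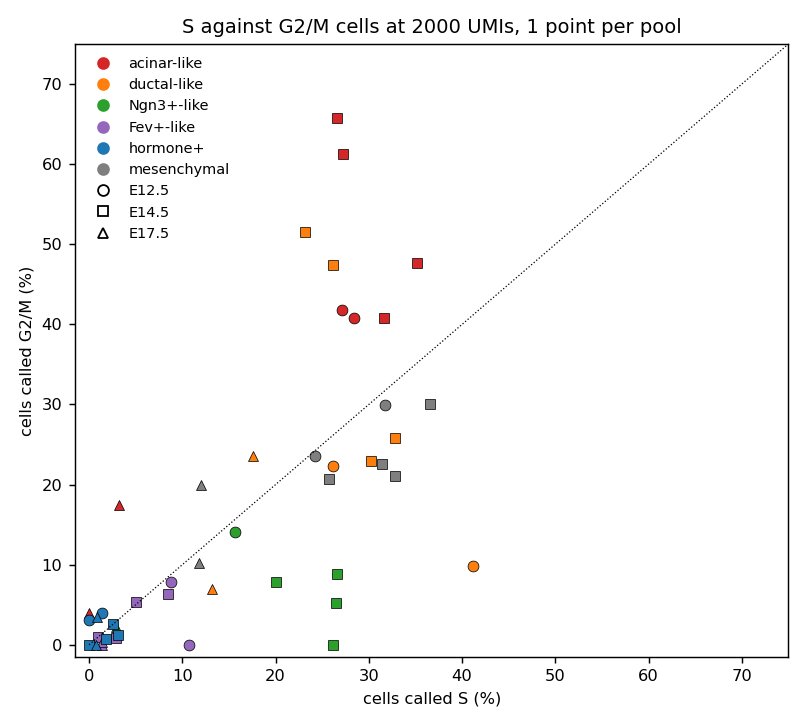
Percent of cells called S (horizontal axis) against percent called G2/M (vertical axis), 1 point per class and pool, with colour for class and shape for stage; the dotted line marks equal shares. Acinar-like points lie above the line and Ngn3+-like points below it.

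Cells called G2/M held more UMIs than cells not called cycling, and RNA content itself was not measured. The ratio of median UMIs per cell was 1.34 in acinar-like cells (1.24 to 1.57, above 1 in 7 of 7 pools), 1.36 in ductal-like cells (7 of 7), 1.35 in mesenchymal cells (8 of 8) and 1.22 in Ngn3+-like cells (3 of 3). For S cells the ratios were 1.21, 1.21, 1.16 and 1.04. At full depth, without thinning, the shares called cycling were higher, with medians of 96.1% in acinar-like cells and 19.8% in hormone+ cells.

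The members were next compared between classes gene by gene, on UMI sums per class and pool fitted over all genes with edgeR's quasi-likelihood test. In a sum over cells, fewer cycling cells and less RNA per cycling cell cannot be told apart. From ductal-like to Ngn3+-like cells, nearly all members fell. In 6 pools, 40 of 43 tested members were lower and 0 higher, where 26.5% of all genes tested were lower, and the median log2 fold change was -1.58 (S genes -1.24, G2/M genes -1.65). All 23 G2/M genes were called and 17 of 20 S genes, with *Mcm2*, *Rrm1* and *Cdc45* not called and *E2f8* too low to test.

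Among the S genes, *Cdc6* changed most, by -2.63 ± 0.34 (log2 ± SE; edgeR adjusted p = 0.000128). It stood at 17.8, 30.7 and 43.5 CPM in ductal-like cells (lowest, median, highest pool) and at 0, 5.18 and 7.81 in Ngn3+-like cells, with no overlap. *Uhrf1*, which keeps DNA methylation through replication, changed by -2.35 ± 0.36 and the checkpoint gene *Clspn* by -2.03 ± 0.37. *Mcm6* stood at 132, 176 and 286 in ductal-like cells and at 20.9, 69.4 and 87.6 in Ngn3+-like cells, lower in 6 of 6 pools (-1.58 ± 0.21, edgeR adjusted p = 0.000161). *Tyms* (-1.63), *Rrm2* (-1.69) and *Pcna* (-1.26) fell too. The E-type cyclins, which drive entry into S phase, fell least among the named genes, with *Ccne1* at -0.88 ± 0.16 and *Ccne2* at -0.86 ± 0.28.

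Among the G2/M genes, *Cdk1* changed most, by -2.37 ± 0.39 (edgeR adjusted p = 0.000604). It stood at 112, 181 and 360 CPM in ductal-like cells and at 0, 40.8 and 65.3 in Ngn3+-like cells. *Kif23*, a motor of cytokinesis, changed by -2.02 ± 0.31 and *Bub1*, a spindle checkpoint kinase, by -2.01 ± 0.36. *Mki67* (-1.90), *Top2a* (-1.77), *Plk1* (-1.66), *Ccnb1*, the mitotic cyclin (-1.51), and *Cks2* (-1.23) fell as well. All of these named G2/M genes were lower in Ngn3+-like cells, by differing amounts.

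Related genes that are not members moved in the same direction. Of 30 other S genes 29 were tested and 27 were lower, with *Tk1*, a thymidine kinase, at -3.24 ± 0.27 and *Gmnn*, the inhibitor of relicensing, at -2.62 ± 0.27. Of 30 other G2/M genes 29 were tested and all 29 were lower, with *Psrc1* at -2.29 ± 0.40 and *Ckap2* at -2.20 ± 0.29. Of 12 genes of G1 and cell cycle exit, 10 were tested, 4 were higher and 3 lower. *Gadd45a*, a growth arrest gene, rose by 6.31 ± 0.19 from a median of 25.9 to 2197 CPM, and *Ccnd1*, the G1 cyclin, changed by -3.42 ± 0.37.

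From Ngn3+-like to Fev+-like cells members of both sets fell further. In 6 pools, 24 of 37 tested members were lower and 0 higher, where 13.2% of all genes tested were lower. These were 14 of 16 S genes and 10 of 21 G2/M genes, and all 37 fold changes were below 0. The difference between the sets in counts of calls was not tested.

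Among the S genes called, *Mcm3* (-2.14 ± 0.28), *Mcm4* (-1.87 ± 0.31) and *Mcm5* (-1.72 ± 0.27) changed most. The helicase genes were not tested as a group. *Mcm3* stood at 14.0, 60.0 and 67.3 CPM in Ngn3+-like cells and at 1.97, 14.7 and 32.1 in Fev+-like cells, lower in 6 of 6 pools (edgeR adjusted p = 0.000556). *Mcm6* (-1.54), *Rrm2* (-1.13), *Ccne1* (-1.09), *Ccne2* (-1.06) and *Tyms* (-0.93) also fell, while *Pcna* (-0.62 ± 0.21, edgeR adjusted p = 0.0598) did not pass.

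Of the G2/M genes, *Kif23* (-1.66 ± 0.36), *Top2a* (-1.54 ± 0.37) and *Ccnb2*, a B-type cyclin (-1.39 ± 0.36), fell most, with *Cks2* (-1.10) and *Cdk1* (-0.80). *Mki67* (-1.08), *Ccnb1* (-1.03) and *Plk1* (-1.32) did not pass. Of the other lists, 11 of 25 other S genes were lower, led by *Hells* (-1.46) and *Rfc4* (-1.36), and 8 of 18 other G2/M genes, led by *Ckap2l* (-1.76) and *Kif2c* (-1.73). Of 11 G1 and exit genes 1 was higher and 6 lower, with *Gadd45a* at -2.70 and *Cdkn1a*, an inhibitor of cyclin-dependent kinases, at -1.87. The count of 24 was 12 without the Fev-Cre pool, 10 on sums over thinned cells and 12 with the cell cycle genes kept in the clustering.

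From Fev+-like to hormone+ cells no member passed the test. In 8 pools 0 of 24 tested members were called by edgeR, where 27.9% of all genes were called in either direction. At an unadjusted p under 0.05 there were 2, and DESeq2 called 1. The median log2 fold change was -0.22, and 20 members were too low to test. *Cdk1* stood at 0, 21.5 and 51.6 CPM in Fev+-like cells and at 2.17, 12.8 and 29.9 in hormone+ cells (-0.09 ± 0.45), so the groups overlapped. *Mcm6* (0.05 ± 0.31), *Pcna* (-0.04), *Tyms* (-0.18), *Rrm2* (-0.53), *Ccne1* (0.12), *Mki67* (0.48 ± 0.58), *Top2a* (-0.05), *Ccnb1* (-0.78) and *Cks2* (-0.21) did not pass, and *Ccne2* and *Plk1* were too low to test. This does not show that the classes were equal in these genes. Of the other lists, 2 of 15 other S genes were called (*Pola1* -1.18, *Orc6* 0.53), 1 of 11 other G2/M genes (*Spc25* 1.21), and 5 of 10 G1 and exit genes, with *Gadd45a* at -2.01 and the G1 cyclin *Ccnd2* at 1.78.

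**Figure D4:**
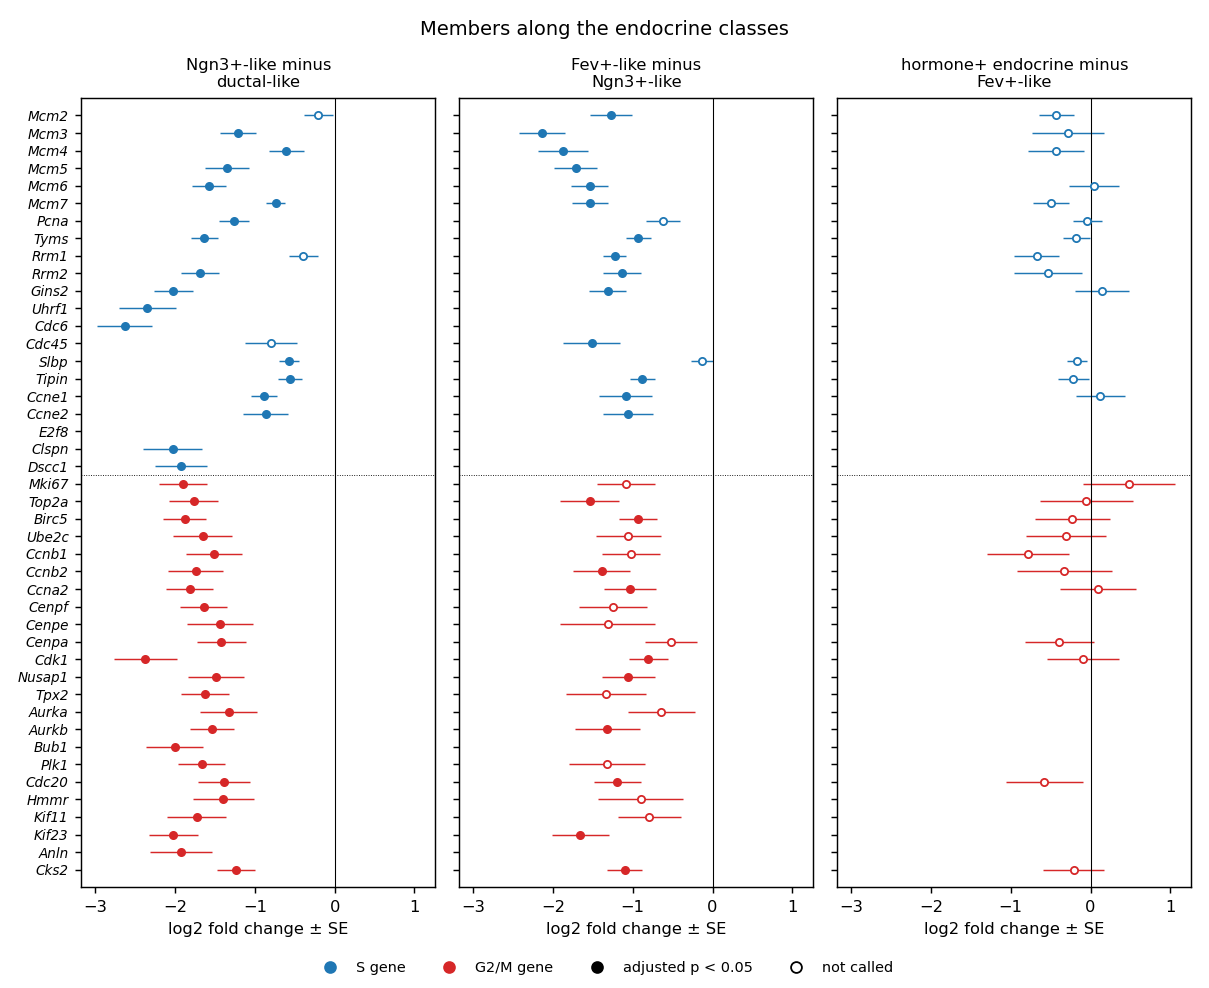
Log2 fold change ± SE (horizontal axis) of each member between classes that follow each other from ductal-like to hormone+ cells; filled points have an edgeR adjusted p below 0.05, and members too low to test are left blank. The 40 filled points of the first panel lie below 0, the second panel has 24, and the third has none.

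Between the exocrine classes, some members were called higher in acinar-like cells, in a fit that averages over the stages. In 8 pools 12 of 44 members were higher than in ductal-like cells and 1 was lower, where 19.4% of all genes were higher and 18.9% lower. The higher members were 5 S and 7 G2/M genes, and the median log2 fold change was 0.23. Whether members were called higher more often than all genes was not tested. The difference between these classes itself changed with stage. From E12.5 to E17.5 it became more negative for all 44 members, 38 of them called, in a separate fit given below. *Rrm2* stood at 50.7, 133 and 336 CPM in ductal-like cells and at 41.5, 202 and 463 in acinar-like cells, higher in 6 of 8 pools (0.69 ± 0.13, edgeR adjusted p = 0.000922). *Tyms* was higher in 7 of 8 pools (0.67 ± 0.12), and *Uhrf1* (0.51 ± 0.19), *Ccne1* (0.49), *Cenpa*, the centromere histone (0.70 ± 0.17), *Hmmr* (0.68 ± 0.16), *Mki67* (0.40) and *Cks2* (0.44) passed too. In CPM, before TMM scaling, the named genes that passed were higher in 3 (*Cks2*) to 7 (*Tyms*) of 8 pools, so the direction of *Cks2* turned with the scaling.

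*Kif23* was the exception. It was lower in acinar-like cells in 8 of 8 pools, at 20.9, 44.2 and 96.1 CPM in ductal-like and 0, 26.6 and 43.5 in acinar-like cells (-0.80 ± 0.21, edgeR adjusted p = 0.0105). *Mcm6* (-0.14), *Pcna* (0.25), *Ccne2* (0.17), *Top2a* (0.38), *Cdk1* (0.27), *Ccnb1* (0.40) and *Plk1* (0.36) did not pass. The D-type cyclins were split, with *Ccnd1* lower (-1.38 ± 0.44) and *Ccnd2* higher (1.27 ± 0.15) in acinar-like cells, among 5 of 12 G1 and exit genes called. Of the other S genes 4 of 30 were higher and 1 lower (*Fen1* 1.00, *Blm* -0.82), and of the other G2/M genes 3 of 30 were higher (*Gtse1* 0.65, *Cdca3* 0.63). The count of 12 ranged from 6 without the version 2 E14.5 pool and 7 without the version 2 E12.5 pool to 27 without the version 2 E17.5 pool.

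Within the mesenchyme, mesothelial-like cells, the covering layer marked by *Upk3b*, had less of some S genes than other mesenchymal cells. In 8 pools 11 of 44 members were lower and 0 higher, where 19.8% of all genes were lower, a share near that of the members. The lower members were 8 S and 3 G2/M genes, and the median log2 fold change was -0.17. *Ccne1* stood at 42.8, 104 and 132 CPM in other mesenchymal cells and at 21.1, 43.8 and 73.0 in mesothelial-like cells, lower in 8 of 8 pools (-1.10 ± 0.11, edgeR adjusted p = 1.01e-05). *Clspn* (-0.89 ± 0.14) and *Ccne2* (-0.87 ± 0.14) were also lower in 8 of 8 pools. The other mesenchymal cells differed in make-up between pools, and CD140a+ cells had been depleted from the Swiss Webster version 2 pools. Of those in version 2, 79.7% at E14.5 lay in a cluster led by *Ebf1* and *Lum*, and 88.7% at E17.5 in one led by *Acta2* and *Lum*. The part of this in the differences was not tested.

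The 3 G2/M genes were *Cenpe*, a kinetochore motor (-0.73 ± 0.17), *Cdk1* (-0.51 ± 0.13) and *Tpx2*, a spindle assembly factor (-0.44 ± 0.15). *Pcna* (-0.26), *Mcm6* (-0.20), *Tyms* (-0.20), *Rrm2* (0.19), *Mki67* (-0.23), *Top2a* (-0.36), *Ccnb1* (0.05), *Plk1* (-0.23) and *Cks2* (-0.08) did not pass. Of the other lists, 5 of 30 other S genes were higher and 5 lower (*Cdt1* 0.60, *Orc1* 0.57), and 2 of 30 other G2/M genes were higher and 2 lower (*Ect2* 0.67, *Racgap1* 0.52). Of 12 G1 and exit genes 3 were higher and 4 lower, with the inhibitor gene *Cdkn1c* at -1.65 and *Ccnd1* at -1.5. The E-type cyclins, *Cdkn1c* and *Ccnd1* were thus all lower in mesothelial-like cells.

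The stages were compared within a class over the 7 Swiss Webster pools, with the kit version as a block. In acinar-like cells the S genes fell from E12.5 to E17.5. Of 44 members 19 were lower and 0 higher, where 8.57% of all genes were lower. They were 17 of 21 S genes and 2 of 23 G2/M genes, with medians of -1.54 and -0.70, and in CPM all 44 members were lower at E17.5 in both kits. On the fitted scale, after TMM scaling, 41 of 44 lay below 0.

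*Mcm6* stood at 194 and 139 CPM at E12.5 (version 1, version 2) and at 28.3 and 32.2 at E17.5 (-1.51 ± 0.35, edgeR adjusted p = 0.00301). *Dscc1*, a clamp loader subunit, fell from 50.6 and 23.8 to 0 and 2.505 (-2.79 ± 0.56). *Ccne1* fell from 38.4 and 48.2 to 7.07 and 5.86 (-2.04 ± 0.42), and *Gins2*, a helicase partner, from 160 and 100 to 14.2 and 16.9 (-1.98 ± 0.37). In each of these genes both E17.5 pools lay below both E12.5 pools.

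*Pcna* (-1.09), *Rrm2* (-1.20) and *Ccne2* (-1.66) also fell, and *Tyms* did not pass (-0.36 ± 0.32). The G2/M genes called were *Ccnb1* (-1.24 ± 0.39) and *Cenpa* (-1.21 ± 0.38). *Mki67* stood at 27.9 and 59.4 CPM at E12.5 and at 14.2 and 59.0 at E17.5, which came to 0.86 ± 0.51 on the fitted scale and did not pass. *Top2a* (-0.44), *Cdk1* (-0.72), *Plk1* (-1.01) and *Cks2* (-0.48) did not pass either.

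Of the other lists in acinar-like cells, 18 of 30 other S genes were lower, led by *Tk1* (-2.43) and *Chaf1b* (-2.27), and 4 of 30 other G2/M genes, led by *Bub1b* (-1.68) and *Cks1b* (-1.27). Of 12 G1 and exit genes 1 was higher, the antiproliferative gene *Btg2* (2.76 ± 0.39), and 4 were lower, led by *Ccnd1* (-3.35 ± 0.40). The count of 19 was 4 without the version 2 E17.5 pool and 8 without the version 2 E12.5 pool, and version 1 held 89 acinar-like cells at the earlier stage and 37 at the later one.

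In ductal-like cells 1 of 44 members was lower at E17.5, where 1.81% of all genes were lower. It was *Ccne1*, at 41.1 and 36.0 CPM at E12.5 and at 11.9 and 14.4 at E17.5 (-1.29 ± 0.34, edgeR adjusted p = 0.0435). Different clusters held most of the class at the 2 stages in both kits, led by *Fxyd2* and *Cldn9* at E12.5 and by *Clu* and *Spp1* (version 1) or *Fmo1* and *Krt23* (version 2) at E17.5. The fold changes had a median of -0.32 in S genes and 0.31 in G2/M genes. *Top2a* went from 59.8 to 28.4 in version 1 and from 136 to 192 in version 2 (0.24 ± 0.64). *Pcna* (-0.17), *Mcm6* (-0.54), *Tyms* (-0.10), *Rrm2* (-0.48), *Ccne2* (0.51), *Mki67* (0.69 ± 0.82), *Cdk1* (0.36), *Ccnb1* (-0.16), *Plk1* (0.05) and *Cks2* (0.32) did not pass. None of 30 other S genes and none of 29 other G2/M genes was called, and of 11 G1 and exit genes 2 were higher, the inhibitor gene *Cdkn2c* (3.12 ± 0.77) and *Btg2* (2.82 ± 0.59), and 1 was lower. *Ccne1* was no longer called when any of the version 1 E12.5, E14.5 batch 2 or E17.5 pools, the version 2 E12.5 pool or the version 2 E17.5 pool was left out.

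In mesenchymal cells *Ccne1* was also the 1 member called lower of 44, where 3.81% of all genes were lower. It stood at 96.2 and 60.2 CPM at E12.5 and at 41.9 and 30.3 at E17.5 (-0.85 ± 0.23, edgeR adjusted p = 0.0415). All 21 S genes had a fold change below 0 (median -0.63), and 17 of 23 G2/M genes did (median -0.27). *Rrm2* went from 201 and 94.5 to 42.5 and 64.0 (-1.21 ± 0.40, edgeR adjusted p = 0.0806). *Pcna* (-0.39), *Mcm6* (-0.48), *Tyms* (-0.41), *Ccne2* (-0.37), *Mki67* (0.12 ± 0.75), *Top2a* (-0.27), *Cdk1* (-0.04), *Ccnb1* (-0.46), *Plk1* (-0.78) and *Cks2* (-0.33) did not pass. *Nasp*, a histone chaperone (-1.27), and *Fen1* (-1.21) led the 4 of 30 other S genes that were lower, none of the 30 other G2/M genes was called, and 3 of 12 G1 and exit genes were higher, with *Btg2* at 4.44 ± 0.62 and *Cdkn2c* at 2.86 ± 0.42. *Ccne1* lost its call without any 1 of the 4 version 1 pools, and 6 members were called without the version 2 E17.5 pool. Different clusters held the mesenchyme at the 2 stages, and CD140a+ cells had been depleted from version 2 only.

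In hormone+ cells 0 of 24 tested members were called between E12.5 and E17.5 by edgeR, where 8.81% of all genes were called in either direction. At an unadjusted p under 0.05 there were 3, and DESeq2 called 0. *Mki67* stood at 0 and 22.1 CPM at E12.5 and at 0 and 22.1 at E17.5 (0.50 ± 0.78). *Mcm6* (-0.89), *Pcna* (0.29), *Tyms* (0.19), *Rrm2* (0.35), *Ccne1* (-1.21), *Top2a* (0.88), *Cdk1* (0.52), *Ccnb1* (-0.07) and *Cks2* (-0.55) did not pass, and *Ccne2* and *Plk1* were too low to test. *Btg2* was higher here as well (2.44 ± 0.38), the 1 gene called of 9 tested in the G1 and exit list, and none of 16 other S and 12 other G2/M genes was called. Most hormone+ cells at E12.5 lay in a cluster with *Gcg* and *Cartpt* among its leading genes, and the largest clusters at E17.5 were led by *Ins1* and *Ins2*, by *Gcg*, or by *Sst* and *Ppy*, so the make-up of the class differed between stages.

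**Figure D5:**
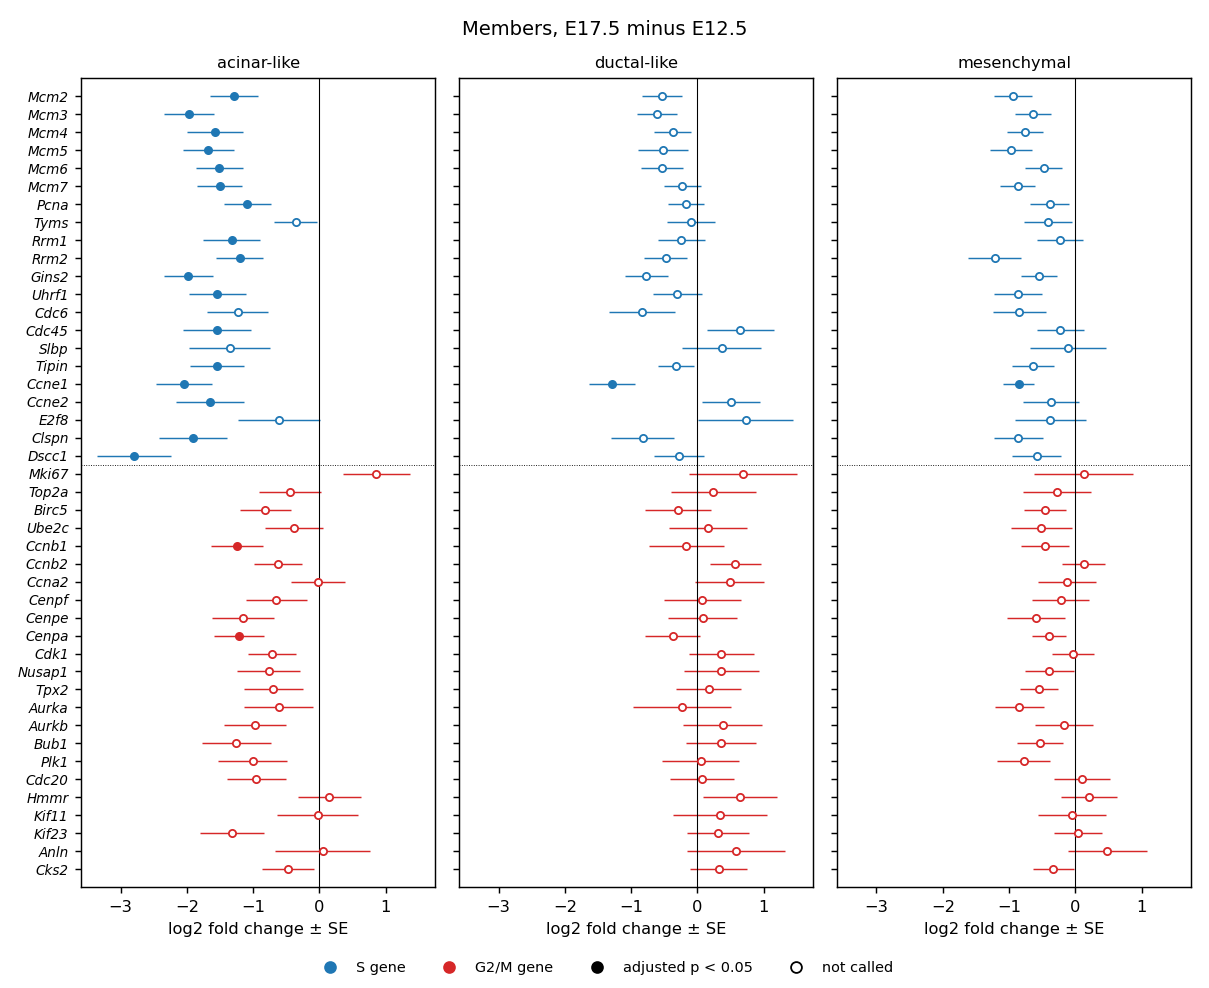
Log2 fold change ± SE (horizontal axis) of each member from E12.5 to E17.5 in acinar-like, ductal-like and mesenchymal cells; filled points have an edgeR adjusted p below 0.05. Acinar-like cells have 19 filled points, 17 of them S genes, and *Ccne1* is the 1 filled point in each of the other panels.

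The stage changes of the 2 epithelial classes were compared with each other in a fit that was added after they had been seen. Both classes lay in different clusters at the 2 stages, as given above, and the part of this in the difference was not tested. The change from E12.5 to E17.5 was more negative in acinar-like than in ductal-like cells for 38 of 44 members and more positive for 0, where 19.5% of all genes went that way. They were 20 of 21 S genes and 18 of 23 G2/M genes, with a median difference of -1.08 on the log2 scale. *Dscc1* (-2.32 ± 0.32, edgeR adjusted p = 3.11e-06), *Cdc45* (-2.23 ± 0.39) and *Ccne2* (-1.80 ± 0.33) differed most among S genes, and the kinase gene *Aurkb* (-1.91 ± 0.26, edgeR adjusted p = 1.95e-06), *Kif23* (-1.90 ± 0.27) and *Bub1* (-1.47 ± 0.30) among G2/M genes.

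*Mcm6* (-1.09), *Pcna* (-1.05), *Rrm2* (-0.78), *Ccne1* (-0.89), *Top2a* (-0.88), *Cdk1* (-1.36), *Ccnb1* (-1.31), *Plk1* (-1.23) and *Cks2* (-0.84) passed, and *Tyms* (-0.50) and *Mki67* (-0.15) did not. Of the other lists, 22 of 30 other S genes went the same way (*Tk1* -2.09, *Chaf1b* -1.93), as did 24 of 30 other G2/M genes (*Ckap2l* -2.18, *Kif20a* -2.07), and of 12 G1 and exit genes 2 went up and 4 down (*Ccnd1* -4.73, *Cdkn1a* 1.96). The count rested on version 2, with 0 members called without its E17.5 pool and 6 without its E12.5 pool, and DESeq2 called 21.

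The members were also read in barcodes too poor in genes to count as cells, which may be red cells or droplets with red-cell RNA and cannot be told apart here. Barcodes with fewer than 200 genes and mostly haemoglobin UMIs numbered 110 to 4663 in the 5 pools that had enough of them to use. There the S genes summed to 162 to 793 CPM (haemoglobin UMIs left out), 18.6% to 32.6% of their level in cells, and the G2/M genes to 4050 to 8893 CPM, 220% to 656.8% of theirs. *Ube2c* alone took 82.0% of the members' UMIs in these barcodes and *Nusap1* 3.17%. Both were therefore left out as an alternative, chosen after these values had been seen, and the median share of cycling cells was then 70.1% in acinar-like cells and 3.38% in hormone+ cells, against 70.8% and 3.70% with them. The median balance went from -0.31 to -0.07 in acinar-like cells, from -0.45 to -0.20 in mesenchymal cells and from 0.37 to 0.61 in Ngn3+-like cells. Cells named erythroid were called cycling in 4.29% to 36.3%, nearly all as G2/M (88.2% to 100%).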

How the data were processed

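UMI counts per gene and cell were used as deposited by the authors. Per the labels and the study's methods, reads were processed with Cell Ranger 1.1 (version 1 kits) and 2.1 (version 2 kits) against mm10. The Fev-Cre matrix with reporter sequences was used, and the other matrix of the same library was left out. Cells with at least 200 genes were clustered (leidenalg 0.10.2, 2000 variable genes, 20 components, 20 neighbours) without the members, the other S and G2/M genes and genes correlated with them above 0.3, and clusters were named from marker lists. Cells carrying markers of separate compartments were set aside as doublets. Cells were thinned to 2000 UMIs for phase calls.

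UMI sums per class and pool, with at least 20 cells, were tested with edgeR 4.0.16 (quasi-likelihood, TMM, filterByExpr, Benjamini-Hochberg over all genes, called at 0.05). The pool was a block between classes, and the kit version a block between stages. DESeq2 1.42.0 was an alternative. The code was tested on simulated data. Between classes, p-values measure the spread over pools of the class difference within a pool. Between stages, they measure the spread left after kit and stage, which includes stage changes that differ between kits. Levels are CPM of a class (UMI sums scaled to a fixed total), not per length, so levels and detection are not comparable between genes as amounts of transcript. The interval level was 95%.

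The members and lists were chosen with earlier results of these data known. Values are given for *Pcna*, *Mcm6*, *Tyms*, *Rrm2*, *Ccne1*, *Ccne2*, *Mki67*, *Top2a*, *Cdk1*, *Ccnb1*, *Plk1* and *Cks2* in every comparison, for the 3 called members with the largest change in each set, for members called against the majority, and for the 2 largest called genes of the lists of 30 other S genes, 30 other G2/M genes and 12 genes of G1 and exit.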

Additional observations from a re-analysis of the deposited data

Results flagged for a closer look

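Among Ngn3+-like cells at E14.5, 20% were called S in the Fev-Cre pool, against 26.2% to 26.6% in the other 3 pools. This value stood apart from its group of 4 by its gap relative to the range. The rule takes no account of counting error, and the value rests on 36 S cells. Of 24 groups of 4 examined, chance would mark about 1 in 20. The pool differs from the others in strain and sort.

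The change from E12.5 to E17.5 differed between acinar-like and ductal-like cells in 38 members, all in 1 direction, by the test of that difference (edgeR). It was 0 without the version 2 E17.5 pool.

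*Ube2c* stood out in barcodes that no comparison used, those with fewer than 200 genes and mostly haemoglobin UMIs. It reached 6515, 6104, 4698, 8153 and 3352 CPM (haemoglobin UMIs left out) in version 1 E14.5 batch 1, version 1 E14.5 batch 2, version 2 E14.5, version 1 E17.5 and version 2 E17.5. In the cells of the same pools it stood at 421, 325, 202.5, 209 and 274. The ratio ran from 12.2 to 39.0. The part of this RNA in the *Ube2c* values of cells was not tested.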

How the results depend on the processing

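The median balance of ductal-like cells, which lies near 0, ran from -0.14 to 0.13 when 1 pool at a time was left out. The median balance then ran from 0.02 to 0.72 in Ngn3+-like, -0.42 to -0.19 in acinar-like, 0.46 to 0.49 in Fev+-like, 0.67 to 0.75 in hormone+ and -0.46 to -0.45 in mesenchymal cells. It was 0.02 in Ngn3+-like cells without either version 1 E14.5 pool or the version 2 E14.5 pool, and 0.72 without any of the other 3. Some values depend on the scaling: *Cks2* between acinar-like and ductal-like cells, and 3 of 44 members between acinar stages, were on opposite sides of 0 in CPM and after TMM. Without the pool or kit block (the replicate block of these fits), 31 members were called from ductal-like to Ngn3+-like cells, 3 from Ngn3+-like to Fev+-like cells, 0 between acinar-like and ductal-like, 1 between mesothelial-like and other mesenchymal, 0 between stages in mesenchymal and in ductal-like cells and 7 in acinar-like cells. With cell cycle genes kept in the clustering the counts were 12 (Ngn3+-like to Fev+-like), 3 (to hormone+), 4 (acinar-like against ductal-like), 2 (mesenchymal stages) and 0 (ductal-like stages), and the median balance moved to -0.74 in ductal-like, 1.61 in Ngn3+-like and 1.53 in Fev+-like cells. Sums over thinned cells gave 10 (Ngn3+-like to Fev+-like), 3 (mesenchymal stages) and 0 (ductal-like stages). DESeq2 gave 1 (Fev+-like to hormone+), 5 (mesenchymal stages) and 21 (difference of stage changes), and no expression filter gave 6 and 5 in the first 2. The cause was not tested in these.

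Leaving out 1 pool at a time gave 38 to 41 members from ductal-like to Ngn3+-like, 12 to 23 to Fev+-like, 0 to 5 to hormone+, 6 to 27 between acinar-like and ductal-like, 10 to 12 in mesothelial-like, and between stages 0 to 6 in mesenchymal, 0 to 1 in ductal-like, 4 to 28 in acinar-like, 0 to 1 in hormone+ and 0 to 40 in the difference of stage changes. The 5 of Fev+-like to hormone+ came without the version 2 E17.5 pool and 1 without Fev-Cre.

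The share of cycling cells depends on depth and on the number of genes asked for. At 1000 UMIs its median was 33.8% in ductal-like, 13.8% in Ngn3+-like, 0.814% in hormone+ and 29.6% in mesenchymal cells. At 3000 UMIs it was 41.3% in Ngn3+-like and 7.31% in hormone+. With at least 2 genes it was 53.5% in Ngn3+-like, 17.9% in Fev+-like, 12.9% in hormone+ and 69.2% in mesenchymal, and with at least 4 genes 14.8% in Ngn3+-like and 1.69% in hormone+. With the 20 most abundant genes removed, an alternative chosen after seeing the data, hormone+ cells gave 6.05%, above the 4.58% of Fev+-like cells. Shares are to be read against each other at 1 setting, not as fractions of dividing cells. Of the remaining alternatives for counts and medians, 92 kept their call or stayed within the spread. For the named genes with 1 pool left out, 774 values kept their call or stayed within the SE. Another 97 lost their call, 19 gained one and 78 moved by the SE or more. Under the other alternatives these numbers were 627, 67, 13 and 22.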

Other observations

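*Btg2* was called higher at E17.5 in all 4 classes whose stages were compared (2.76 in acinar-like, 2.82 in ductal-like, 4.44 in mesenchymal and 2.44 in hormone+ cells, edgeR log2 fold changes). Enzyme treatment was longer at E17.5, so stage and dissociation cannot be told apart. *Ccnd1* fell with stage in acinar-like cells (-3.35), and its change there differed from that in ductal-like cells (1.14, not called) by -4.73 in the fit of the difference.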
